A study of Xenopus laevis with 9 samples.

Results

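The ligands of the Nodal, Gdf and Lefty families were examined in explants of Xenopus laevis embryos. The members were the rows of the count tables whose symbol starts with nodal or lefty, or is gdf1 or gdf3 on either subgenome. This rule took 24 of 51061 rows: 16 nodal, 2 lefty and 6 gdf rows under 20 distinct names. The suffixes .L and .S mark the copies of a gene on the long and short chromosomes of this allotetraploid frog, and rows that share a name are told apart here by the gene number of the tables. The data were RNA-seq of 9 libraries, each made from pooled explants of the animal pole (blastula stem cells), and the study describes the 3 libraries of a group as biological replicates. The soxb1 morphant (MO) explants, at stage 9, came from wild-type embryos injected with translation-blocking morpholinos against sox2 and sox3. The neural plate border (NPB) explants, at stage 11.5, came from wild-type embryos and are labelled as given Wnt8a and Chordin mRNA, although the study also describes small molecules for this induction. The wild-type (WT) explants, at stage 9, have no treatment listed, and no library with a control morpholino was among the 9. The WT libraries served as reference for both comparisons, so these share their controls. NPB and WT explants differ in stage, in the mRNA given and in the count table that holds them, and these cannot be told apart.

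Nodal ligands are secreted TGF-beta family proteins that bind activin receptors together with EGF-CFC co-receptors and act through Smad2, Smad3, Smad4 and the DNA-binding partner Foxh1. In the frog blastula they induce mesoderm and endoderm in the vegetal and equatorial regions, with nodal5 and nodal6 as the earliest zygotic members, while the animal pole normally forms ectoderm. Gdf1 (Vg1) is a maternal ligand laid down vegetally in the egg, Gdf3 (derriere) is a zygotic one, Lefty is a secreted inhibitor of Nodal that is itself induced by Nodal signalling, and Nodal3 is a divergent ligand turned on directly by Wnt signalling that does not induce mesoderm. Sox3 is known in Xenopus to repress nodal5.

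The libraries held between 25796466 and 48839143 counts, so that 3 counts, taken as the floor for calling a row present, corresponded to between 0.0614 and 0.116 CPM (counts per 1000000 counts of the library). Intervals and floors cover counting error only. Of the 10 tested rows of pax3, zic1, msx1, prdm1 and tfap2a, which mark the neural plate border, 9 were higher in NPB than in WT explants. Of all genes tested, 26.9% were called higher. sox3.L stood at 395 ± 86.3 CPM in MO and 209 ± 51.2 CPM in WT explants (SD, n = 3 each), a transcript level that a morpholino against translation need not lower. Summed markers of vegetal germ plasm lay between 604 and 749 CPM in MO, 103 and 138 CPM in NPB, and 477 and 685 CPM in WT libraries, with none of their 8 rows at 0 in a stage 9 library. Most of the stage 9 sums was the single row plin2.S, at 444 to 596 CPM in MO and 369 to 572 CPM in WT libraries. plin2.S stood at 24.8 to 47.1 CPM in NPB libraries, so the lower NPB sums mainly follow that row. Summed markers of the animal ectoderm lay between 867 and 900 CPM in MO, 758 and 1293 CPM in NPB, and 827 and 918 CPM in WT libraries. Single rows moved in both directions within these sums. Of 13 tested, 6 were higher and 2 lower in NPB than in WT explants, against 26.9% and 26.7% of all genes. lrig3.S rose by 4.54 and foxi2.S fell by 6.02 on the log2 scale. In such bulk samples, fewer cells of a type and less RNA per cell cannot be told apart.

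Of the 24 members, 20 had at least 1 count in some library, and 18 reached 3 counts in at least 1 library. The rows nodal5.5.L, nodal5.6.L, nodal5.7.L and nodal5.8.L were at 0 in all 9. At stage 9 the ligand RNA was almost wholly that of gdf1.L, lefty.L, lefty.S and gdf3.S, while the nodal rows hardly rose over the floor. In NPB explants the gdf1 and lefty counts were low, and in replicates 2 and 3, but not in replicate 1, nodal3.1.L gene36628 was the member with most counts. The plot of CPM by library shows both patterns.

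**Figure D1:**
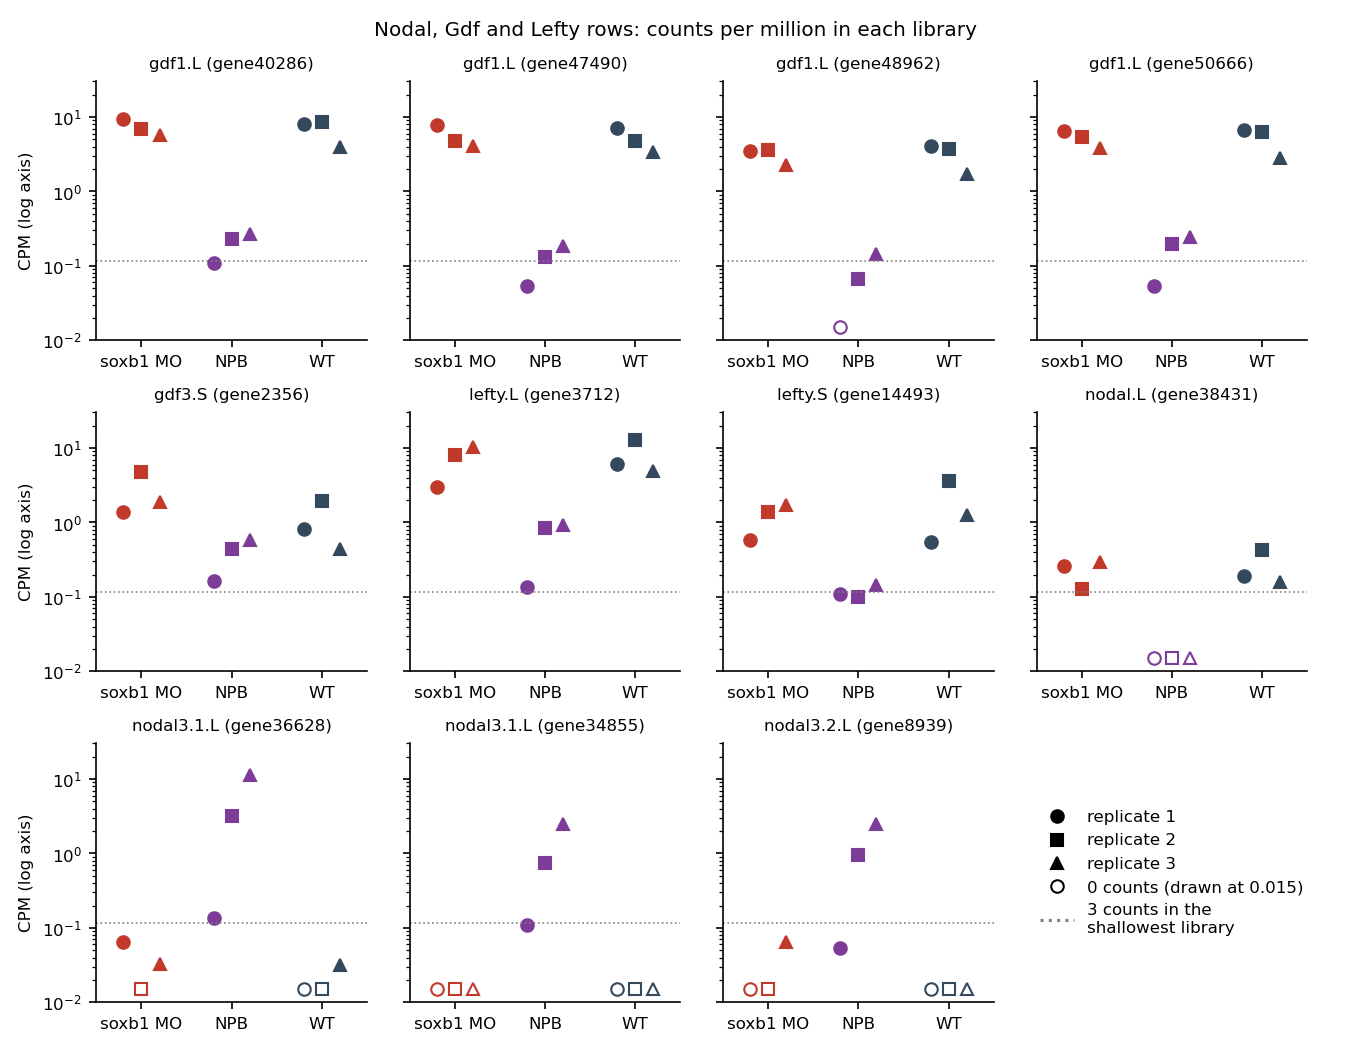
CPM (log axis) of 11 members in the 3 soxb1 MO, 3 NPB and 3 WT libraries, 1 point per library, with open symbols for 0 counts and a dotted line at 0.116 CPM, which is 3 counts in the shallowest library. The gdf1.L and lefty rows lie far lower in NPB libraries than in both stage 9 groups, and the nodal3 rows appear in NPB libraries, least in replicate 1.

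Rows were tested with edgeR across all genes that passed a filter on low counts, and an adjusted p of 0.05 or less was called. The filter kept 7 members in each comparison: the 4 gdf1.L rows, gdf3.S and both lefty rows. None of the 16 nodal rows passed it. Between MO and WT explants, 0 of the 7 were called, against a background of 0.0% of 21659 genes, of which 1238 were under an unadjusted p of 0.05. Limma-voom and DESeq2 also called 0 of the 7. Libraries of MO and WT explants with the same replicate number deviated together, so the fit was also made with the replicate number as a block. It called 1 of the 7 members (gdf3.S, higher), against 12.5% of all genes, 5.75% called higher and 6.71% called lower. Between NPB and WT explants, 6 of the 7 were called, all lower, against 53.7% of all genes called in either direction, 26.9% called higher and 26.7% called lower. Scaled by library totals alone, the median log2 change over all genes moved to -0.72, against -0.04 with TMM, and the calls over all genes were 3642 higher and 9731 lower, against 5920 higher and 5877 lower. The 6 members were called lower under each scaling tried. They passed the filter through the WT libraries, where they are high, so their count is a description.

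Gdf1, the vegetally stored ligand Vg1, was the family member with most counts in the stage 9 explants and was not called between morphant and wild-type explants. It is listed as 4 rows named gdf1.L, across which reads of near-identical copies could have been split or lost. Summed over the 4 rows, gdf1.L stood at 27.1, 20.7 and 15.8 CPM in MO libraries, against 25.7, 23.5 and 11.9 CPM in WT libraries. Both groups covered nearly the same range, and replicate 3 was the lowest library in each. The log2 fold change of the sum was 0.06 (SE 0.34, edgeR adjusted p 1.0), and 0.09 (SE 0.12, adjusted p 0.700) in the fit with the replicate block. The ratio of MO to WT was 1.06, 0.871 and 1.34 in the pairs of replicates 1, 2 and 3, so that 2 of the 3 pairs were above 1.

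In NPB explants the same 4 rows held 8, 19 and 41 counts (0.217, 0.634 and 0.839 CPM), against 664, 661 and 372 counts in WT explants. No NPB library came near a WT library. The log2 fold change of the sum was -4.50 (SE 0.53, edgeR adjusted p 0.000295), and those of the single rows lay between -4.72 and -4.29. Row gene40286, with the most counts, had 4, 7 and 13 counts in NPB libraries, against 206, 241 and 124 in WT libraries. The other 3 rows, gene47490, gene48962 and gene50666, showed the same order of groups, with between 0 and 12 counts in NPB and between 54 and 182 in WT libraries. Of the 8 vegetal germ plasm rows, 4 were lower and 1 higher in NPB explants, a share of calls near that of all genes, with a median log2 change of -0.43. plin2.S, which encodes a lipid droplet protein, and nanos1.L, a germ cell regulator, fell by 2.95 and 3.07 on the log2 scale, and trim36.L rose by 2.09. The calls of ddx25.L and grip2.L were each lost in 5 of 6 fits without a single library, and that of trim36.L without any one WT library. trim36.L stood at 66.4, 17.6 and 13.5 CPM in NPB libraries, against 14.6, 12.5 and 11.8 CPM in WT libraries, so that NPB replicate 1 was far the highest. Under library totals alone it was not called (1.33, edgeR adjusted p 0.0765). The part of these vegetal transcripts in the gdf1.L values was not tested.

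The 4 gdf1.L rows kept nearly the same proportions at stage 9. Row gene40286 took between 33.5% and 35.9% of the gdf1.L counts in MO and between 31.0% and 36.5% in WT libraries. Row gene48962 took the least, between 12.7% and 17.5% in MO and between 14.5% and 16.0% in WT libraries. The proportions in NPB libraries rest on at most 41 counts. The short-chromosome copy was at the floor: gdf1.S had 0, 2 and 0 counts in MO, 0, 1 and 8 in NPB, and 2, 1 and 0 in WT libraries. Its NPB to WT ratio was 3.55, with a 95% counting interval of 0.887 to 20.4.

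Gdf3, known in Xenopus as derriere and as a zygotic mesoderm inducer, was the 1 tested member called between morphant and wild-type explants in the paired fit. gdf3.S stood at 1.38, 4.83 and 1.87 CPM in MO libraries, against 0.814, 1.92 and 0.447 CPM in WT libraries. The groups overlapped, because replicate 2 was the highest library of each and WT replicate 2 exceeded MO replicates 1 and 3. Within replicate numbers the MO library was higher in 3 of 3 pairs, by 1.71-fold, 2.48-fold and 4.2-fold in replicates 1, 2 and 3 on the TMM-scaled CPM. Without the block the log2 fold change was 1.33 (SE 0.69, edgeR adjusted p 1.0). With the replicate block gdf3.S rose by 1.36 (SE 0.27, edgeR adjusted p 0.00291), and DESeq2 with that block gave an adjusted p of 0.0127. The call was lost without the replicate 2 pair (1.39, adjusted p 0.0742), and kept without either of the other pairs (1.58 and 1.12, adjusted p 0.00062 and 0.0128). As 12.5% of all genes were called in this fit, the call of 1 member in 7 is near that background.

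**Figure D2:**
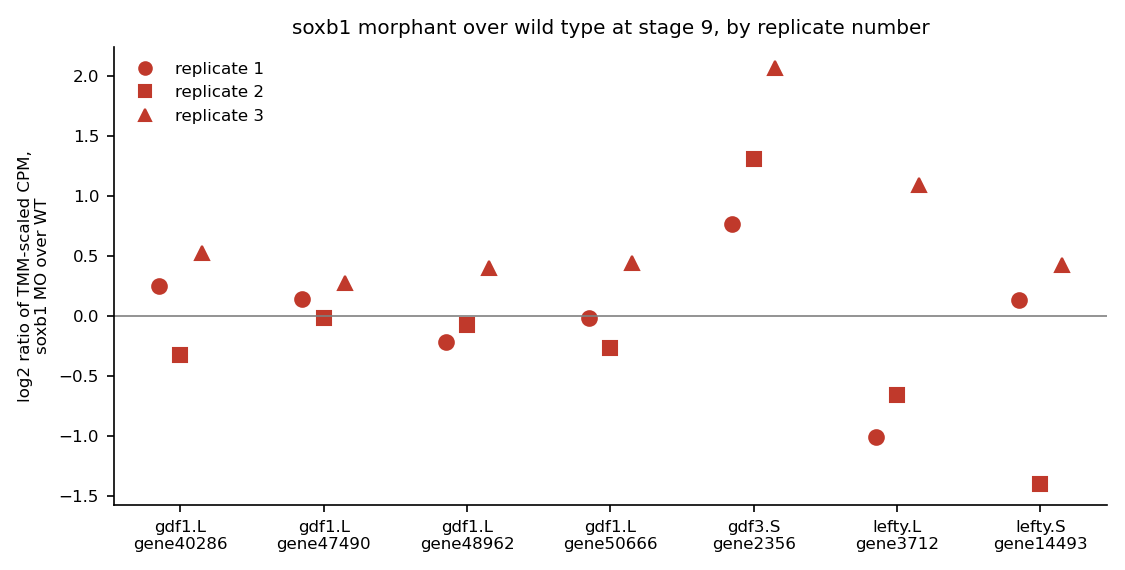
Log2 ratio of TMM-scaled CPM, soxb1 MO over WT, for the 7 tested members (1 point per replicate number, line at no difference). gdf3.S lies above 0 in all 3 pairs, whereas the gdf1.L and lefty rows lie on both sides of 0, with replicate 3 the highest pair for each.

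In NPB explants gdf3.S stood at 0.163, 0.434 and 0.573 CPM, against 0.814, 1.92 and 0.447 CPM in WT explants. The groups overlapped through NPB replicate 3 and WT replicate 3. The log2 fold change was -0.76 (SE 0.69, edgeR adjusted p 0.383), so that gdf3.S was the tested member not called between NPB and WT.

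Lefty, the feedback inhibitor, was present in every stage 9 library. lefty.L stood at 2.99, 8.15 and 10.4 CPM in MO libraries, against 6.05, 12.7 and 4.89 CPM in WT libraries. The groups overlapped, and the pairs pointed in both directions: the MO to WT ratio was 0.497, 0.632 and 2.14 in replicates 1, 2 and 3. The log2 fold change was -0.14 (SE 0.53, edgeR adjusted p 1.0), and -0.16 (SE 0.55, adjusted p 0.916) with the replicate block. Replicate 3 decided the paired value, since without that pair lefty.L fell by 0.81 (edgeR adjusted p 0.00385), and without the pair of replicate 1 or 2 the value was 0.18 or 0.13. lefty.S had 18, 44 and 52 counts in MO libraries, against 14, 102 and 40 in WT libraries, with overlapping groups and a log2 fold change of -0.56 (SE 0.74, edgeR adjusted p 1.0).

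Both lefty copies were lower in NPB explants. lefty.L had 5, 25 and 45 counts in NPB libraries, against 156, 358 and 153 in WT libraries, and fell by 2.98 on the log2 scale (SE 0.68, edgeR adjusted p 0.00666). lefty.S had 4, 3 and 7 counts in NPB libraries, against 14, 102 and 40 in WT libraries, and fell by 3.21 (SE 0.79, edgeR adjusted p 0.00949). The groups did not overlap for either copy. In the fit of all genes with at least 1 count, the call of lefty.S was lost without WT replicate 2 (-2.30, edgeR adjusted p 0.0796). The L copy took between 83.5% and 85.9% of the lefty counts in MO, between 55.6% and 89.3% in NPB and between 77.8% and 91.8% in WT libraries, where the widest range, that of NPB explants, rests on 9 counts in replicate 1.

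The nodal genes were close to absent at stage 9. The row nodal.L was the only nodal row with at least 3 counts in every stage 9 library: 8, 4 and 9 counts in MO, against 5, 12 and 5 in WT libraries. The groups overlapped, and with all genes of at least 1 count in the fit the log2 fold change was -0.18 (SE 0.77, edgeR adjusted p 1.0). Its partner nodal.S had between 0 and 2 counts in any stage 9 library. In NPB libraries both were at 0, for which the 95% Poisson limit in the smallest NPB library was 0.123 CPM. The floor of 3 counts was 0.100 CPM in that library. The mean of the TMM-scaled floors of the NPB libraries was 0.103 CPM. Against that mean floor, nodal.L was at least 1.97-fold lower in NPB than in WT explants on the TMM-scaled mean. In the fit of all genes with at least 1 count it was called lower (edgeR adjusted p 0.0148), a call lost with the replicate block (edgeR adjusted p 0.0594). The WT libraries, where nodal.L is higher, alone brought it into that fit, so the call is a description.

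The mesoderm-inducing genes nodal1, nodal2, nodal5 and nodal6 are 11 rows. In the RefSeq annotation of assembly v10.1, which held 15 of the 20 member names, nodal5.L, nodal5.2.L and nodal6.L are direct neighbours and nodal2.L adjoins nodal1.L. Together they had 0, 2 and 44 counts in MO libraries, 7, 1 and 4 in NPB libraries, and 2, 0 and 13 in WT libraries. MO replicate 3 stood apart, at 1.45 CPM (95% Poisson interval 1.05 to 1.94), with counts in 7 of the 11 rows. The highest WT library, replicate 3, stood at 0.415 CPM (0.221 to 0.710), all of it nodal1.S. The 3 MO libraries thus spanned the whole range seen at stage 9, and the level was not shared by the replicates of the group.

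In MO replicate 3, nodal1.S had 17 counts, nodal1.L 6, nodal5.2.L 6, nodal5.L 5, nodal2.L 4, nodal6.L 4 and nodal6.S 2. nodal5.L, nodal5.2.L, nodal6.L and nodal6.S were at 0 in the other 5 stage 9 libraries. nodal1.S had 13 counts in WT replicate 3, so that this row was high in both libraries of that number. With all genes of at least 1 count in the fit, 19 members were tested between MO and WT, of which 11 were nodal rows, and 0 were called (background 0.0429% of 37290 genes). In the paired fit of the same genes gdf3.S was the 1 member called (background 9.43%).

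**Figure D3:**
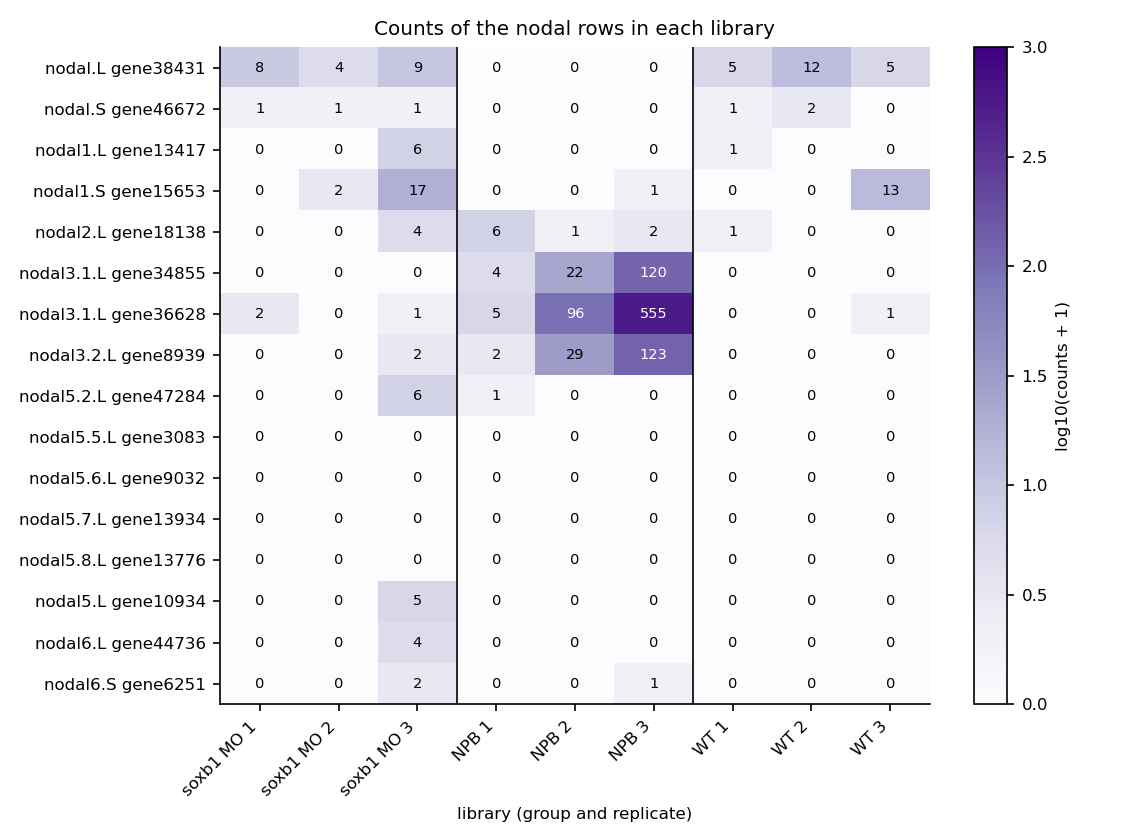
Counts of the 16 nodal rows (vertical) in the 9 libraries (horizontal, 3 soxb1 MO, 3 NPB, 3 WT), with shade for log10(counts + 1) and the count printed in each cell. The nodal1, nodal2, nodal5 and nodal6 counts of MO replicate 3 and the nodal3 counts of NPB replicates 2 and 3 stand out from a field mostly at 0.

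Some other genes of the mesendoderm, but not all, were also high in MO replicate 3. mixer.L, a homeobox gene of the endoderm, had 10, 14 and 40 counts in MO, against 7, 3 and 1 in WT libraries, and mixer.S had 1, 0 and 24 counts, against 1, 0 and 0. mix1.S, another homeobox target of Nodal, had 4, 9 and 45 counts in MO, against 14, 23 and 8 in WT libraries. By contrast, bix1.2.L had 14, 57 and 18 counts and gata5.S 48, 24 and 8 in MO libraries. Of the 34 target rows with a count in the MO group, 20 were highest in replicate 3, 8 in replicate 1 and 6 in replicate 2. The share over all rows was not taken, so these numbers are a description. MO replicate 3 also held 50635 counts of smad4.1.S, against 8657 and 11207 in the other MO libraries and between 11901 and 16584 in WT libraries. The part of this library's composition in its nodal counts was not tested.

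The nodal3 genes, the Wnt-induced members of the family, were the members called higher in NPB explants. Summed over their 3 rows they had 11, 147 and 798 counts in NPB libraries (0.298, 4.91 and 16.3 CPM), against 0, 0 and 1 count in WT libraries and 2, 0 and 3 in MO libraries. Every NPB library was above every stage 9 library, but the NPB libraries differed far more among themselves than their counting intervals allow (0.149 to 0.534, 4.14 to 5.77 and 15.2 to 17.5 CPM). These rows reached the test only through the NPB group: with all genes of at least 1 count in the fit, 18 members were tested, and 10 were called (3 higher, 7 lower), against a background of 31.1% of 38371 genes, 16.1% called higher and 15.0% lower. The 3 called higher were the nodal3 rows, whose calls are a description, since the group in which they are high brought them into the fit. nodal2.L, near the floor, had 6, 1 and 2 counts in NPB libraries, against 1, 0 and 0 in WT libraries, and was not called. Its NPB to WT ratio was 10.7, with a 95% counting interval of 1.48 to 467.

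nodal3.1.L gene36628 had 5, 96 and 555 counts in NPB libraries, against 0, 0 and 1 in WT libraries, a ratio of 777 of the summed, scaled counts with a 95% counting interval of 139 to 30732, and of 216 (37.8 to 8598) without NPB replicate 3. nodal3.1.L gene34855 had 4, 22 and 120 counts, against 0 in all 3 WT libraries. Set against the floor of 3 counts per library, it was at least 16.0-fold higher on the group mean, and at least 1.81-fold, 10.8-fold and 35.2-fold higher in NPB replicates 1, 2 and 3. nodal3.2.L had 2, 29 and 123 counts, against 0 in all 3 WT libraries, and was at least 17.1-fold higher on the group mean, with NPB replicate 1 itself under the floor. The call of gene36628 was lost without WT replicate 1, 2 or 3 or NPB replicate 2 (edgeR adjusted p 0.0930 to 0.232).

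The transcripts of the injected mRNAs were high in NPB explants. Summed over the 4 rows of wnt8a and of chrd.1, which encodes Chordin, they stood at 2752, 13875 and 3259 CPM in NPB libraries. The same sums were 9.46, 3.48 and 1.31 CPM in WT libraries. wnt8a.L stood at 291, 546 and 293 CPM in NPB libraries, against 1.2, 0.319 and 0.351 CPM in WT libraries. wnt8a.S had 5, 192 and 152 counts in NPB libraries, against 0 in all 3 WT libraries. sia1.L, another direct target of Wnt signalling, had 1, 9 and 15 counts in NPB libraries, against 0 in all 3 WT libraries, while sia2.S had 10, 11 and 9, against 3, 2 and 0. tbxt.S, which encodes the mesodermal factor Brachyury, had 13, 18 and 787 counts in NPB libraries, against 14, 19 and 14 in WT libraries. foxi1.L, an ectodermal gene, had 8, 64 and 944 counts in NPB libraries, against 116, 129 and 59 in WT libraries. NPB replicate 3 was thus the highest NPB library for nodal3, tbxt.S and foxi1.L. Marker rows did not all follow it. Of the 14 animal ectoderm rows, 8 were highest in NPB replicate 1 and 6 in replicate 3. Of the 10 neural plate border rows, 8 were highest in NPB replicate 1. By CPM, NPB replicate 3 was the highest for 13 of the 15 members with a count in the NPB group. Of these, nodal1.S and nodal6.S held 1 count each there. The share over all rows was not taken, so the 13 of 15 is a description. The parts of the injected mRNA and of the composition of NPB replicate 3 in the nodal3 values were not tested.

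Levels of different genes can be set side by side only per length, which the authors' TPM gave for the NPB libraries. nodal3.1.L gene36628 stood at 0.210, 7.44 and 24.97 TPM, gene34855 at 0.890, 5.06 and 20.14 TPM, and nodal3.2.L at 0.0900, 3.35 and 7.69 TPM. These 3 rows led the members by mean TPM, but in replicate 1 nodal3.1.L gene36628 was below gdf1.L gene40286 (0.410 TPM) and no order among the leading rows exceeded the spread of the libraries. The gdf1.L rows lay between 0.230 and 0.713 TPM on average, gdf3.S at 0.423 ± 0.194, lefty.L at 0.567 ± 0.352 and lefty.S at 0.113 ± 0.0153 TPM (SD, n = 3). Of the other rows, nodal2.L stood at 0.310, 0.0400 and 0.110 TPM, and gdf1.S was listed at 0 in replicates 1 and 2. The 2 nodal3.1.L rows differed more in counts (555 and 120 in replicate 3) than in TPM. TPM also divides by length, and the part of length and that of read assignment in this gap were not told apart.

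**Figure D4:**
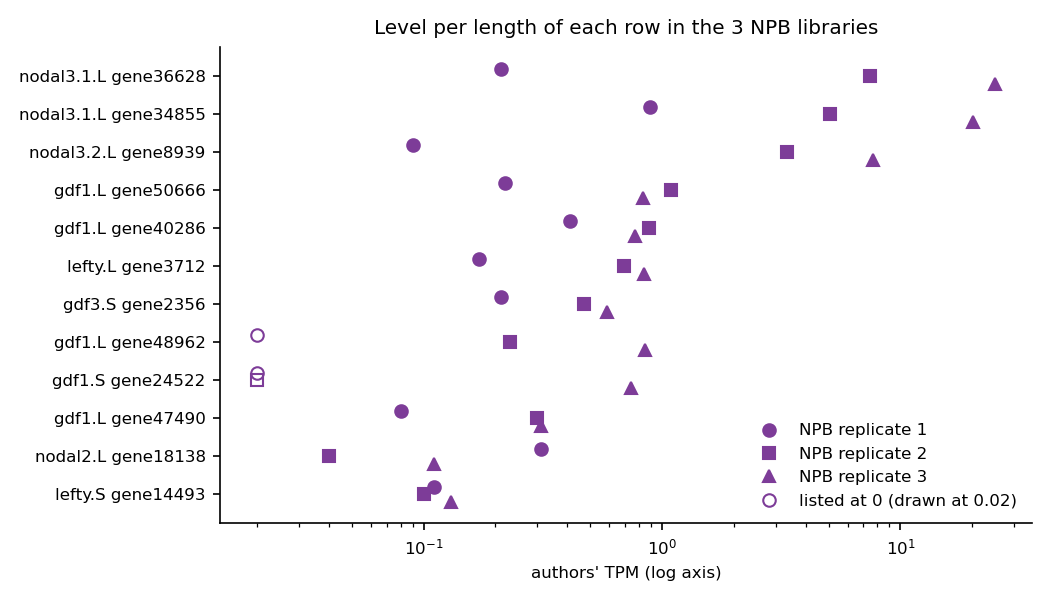
Authors' TPM (log axis) of the 12 members with a mean over 0.05 in the 3 NPB libraries, ordered by mean, 1 symbol per replicate, open where listed at 0. The 3 nodal3 rows lead through replicates 2 and 3, while in replicate 1 all 12 rows are below 1 TPM.

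For the nodal, gdf and lefty row with the highest mean CPM, the most alike rows among 14945 others were taken by the Pearson correlation of log2(CPM + 1) over the 9 libraries, a description in which points share their group and table. The rows most like nodal3.1.L gene36628 were cdx2.L (r = 0.98), a homeobox gene of the posterior body, hars1.L (0.97) and ankrd65.L (0.97). cdx2.L stood at 0.173 CPM in MO, 19.6 CPM in NPB and 0.679 CPM in WT explants on average. The rows most like gdf1.L gene40286 were rell1.L, atg101.S and LOC108719557, with r between 0.994 and 0.997, and those most like lefty.L were cyc1.L (0.98), c8orf82.S (0.97) and jtb.S (0.97).

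The other genes of the pathway were taken from lists by role. Of 8 rows of other activin branch ligands, tgfb2.S was the 1 tested between MO and WT explants, with no call. It had 13, 398 and 54 counts in MO libraries, against 3, 394 and 27 in WT libraries, so that replicate 2 was far the highest of each group. Of 2 tested in NPB explants, inhbb.S, an activin subunit, was higher (2.56, SE 0.58, edgeR adjusted p 0.00612), with 13, 11 and 30 counts in NPB libraries, against 3, 4 and 3 in WT libraries. It passed the filter through the NPB libraries, where it is higher, so this call is a description. Among receptors and co-receptors, 2 of 9 tested rows were higher and 1 lower in MO than in WT explants in the fit with the replicate block. Over all genes that fit called 5.75% higher and 6.71% lower, and no receptor row was called without the block. Of the receptor rows called, acvr1b.S (higher) lost its call in 2 of the 3 fits without a pair, and acvr2b.S (lower) in all 3. acvr2a.L, a type II activin receptor, stood at 27.9 ± 4.24 CPM in MO and 21.6 ± 1.15 CPM in WT explants and rose by 0.36 (SE 0.10, edgeR adjusted p 0.0218), a call lost without the replicate 2 or the replicate 3 pair (adjusted p 0.0929 to 0.157). In NPB explants 2 of 10 receptor rows were higher and 3 lower than in WT, a share of calls near the 53.7% of all genes. Of these, acvr2b.S was not called under library totals alone (0.15), and acvr2b.L lost its call under RLE scaling (adjusted p 0.0513) and in 4 of 6 fits without a single library. acvr2a.L rose by 1.3 (SE 0.19, edgeR adjusted p 0.000838), and tdgf1.1.L, of the EGF-CFC co-receptors, fell by 0.93 (SE 0.24, adjusted p 0.0104). tdgf1.3.L, another of these, stood at 274 ± 56.9 CPM in MO, 231 ± 48.7 CPM in NPB and 259 ± 51.2 CPM in WT explants (SD, n = 3 each).

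Of 12 tested rows of Smads and Foxh1, 2 were higher and 10 lower in NPB, against 26.9% and 26.7% of all genes. The median log2 change of the 12 rows was -1.47, against -0.04 over all genes. foxh1.L, the maternal partner of the Smads, stood at 1.92, 3.64 and 4.1 CPM in NPB libraries, against 97.9, 78.3 and 125 CPM in WT libraries, and fell by 4.29 (SE 0.32, edgeR adjusted p 5.39e-05). foxh1.2.L and foxh1.S fell by 5.43 and 4.1. The 2 rows that were higher were both copies of smad4.1, a gene of the shared Smad, with log2 changes of 3.28 (smad4.1.L, SE 0.21) and 2.94 (smad4.1.S, SE 0.19). Both were also called higher under library totals alone, at 2.58 and 2.25. The smad4.2 rows were among those lower, with log2 changes between -2.19 and -1.14. Of these, smad4.2.L gene45815 lost its call under RLE and upper-quartile scaling (edgeR adjusted p 0.0521 and 0.0510). In MO explants, smad4.1.L rose by 0.52 (SE 0.10, edgeR adjusted p 0.00218, replicate block) and smad2.S by 0.36 (SE 0.09, adjusted p 0.0115), the 2 called of 13. Over all genes that fit called 5.75% higher. Their other copies were not called. smad4.1.S stood at 284, 354 and 1664.5 CPM in MO libraries, against 461, 538 and 530 CPM in WT libraries, lower in MO in replicates 1 and 2. smad2.L stood at 47.6, 64.0 and 36.3 CPM in MO libraries, against 46.2, 56.0 and 36.6 CPM in WT libraries. Without the replicate 2 pair smad2.S was at 0.23 and not called (adjusted p 0.135). The convertase furin.L, which cleaves ligand precursors, stood at 46.1 ± 5.83 CPM in MO and 73.3 ± 17.6 CPM in WT explants and fell by 0.65 (SE 0.08, edgeR adjusted p 7.24e-05, replicate block), and it fell by 2.09 in NPB explants (SE 0.33, adjusted p 0.00112).

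Among the inhibitors, the maternal antagonist Dand5 (Coco) and Cerberus moved in opposite directions in NPB explants. dand5.S stood at 2.66, 8.78 and 10.2 CPM in NPB libraries, against 377, 434 and 374 CPM in WT libraries, and fell by 5.12 (SE 0.45, edgeR adjusted p 0.000115). cer1.S had 2505, 68 and 979 counts in NPB libraries, against 1, 0 and 3 in WT libraries, and rose by 9.97 (SE 1.64, edgeR adjusted p 0.00181). It passed the filter through the NPB libraries, where it is high, so this call is a description. Its highest library was replicate 1, the lowest for nodal3. Of the 17 inhibitor rows 7 were higher and 4 lower, against 26.9% and 26.7% of all genes. But under library totals alone 6 of the 7 higher rows, all but cer1.S, were not called and ski.L turned to -0.05. In MO explants 3 of 16 were lower in the fit with the replicate block, against 6.71% of all genes. Of these, trim33.S and tgif2.L lost their calls in 2 and 1 of the 3 fits without a pair. dand5.S kept its call in each of those fits and fell by 0.30 (SE 0.07, edgeR adjusted p 0.00574), with 321 ± 30.2 CPM in MO and 395 ± 33.6 CPM in WT explants.

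The upstream regulators included the vegetal activators of nodal5 and nodal6. In MO explants 8 of 18 rows were higher and 2 lower in the fit with the replicate block, against 5.75% and 6.71% of all genes. Of the 8 higher rows, 4 were rows of the targeted sox2 and sox3. vegt.S, a maternal T-box factor, stood at 153, 123 and 103 CPM in MO libraries, against 110, 75.8 and 46.2 CPM in WT libraries. It was higher in 3 of 3 pairs and rose by 0.77 (SE 0.12, edgeR adjusted p 0.00322), a call lost without the replicate 2 pair (adjusted p 0.0861). The summed germ plasm markers, also vegetal transcripts, stood at 749, 701 and 604 CPM in MO libraries, against 595, 685 and 477 CPM in WT libraries, likewise higher in 3 of 3 pairs. Most of each sum was plin2.S, at 596, 545 and 444 CPM in MO libraries, against 493, 572 and 369 CPM in WT libraries. That row was lower in MO than in WT in the pair of replicate 2. The part of the germ plasm markers in the vegt.S values was not tested. sox7.S stood at 12.7, 9.44 and 2.63 CPM in MO libraries, against 2.29, 1.35 and 0.383 CPM in WT libraries, and rose by 2.65 (SE 0.18, edgeR adjusted p 1.71e-07). The other copies, sox7.L and vegt.L, had log2 changes of 1.15 and 0.36 in the fit with the replicate block. Within the MO group, vegt.S and sox7.S were lowest in replicate 3. The part of these regulators in the nodal1, nodal2, nodal5 and nodal6 counts was not tested. In NPB explants 8 of 18 rows were higher and 5 lower, against 26.9% and 26.7% of all genes. otx1.S (7.27, SE 0.62) and ctnnb1.L (1.67, SE 0.16) were among those higher, and foxi2.S (-6.02, SE 0.39), vegt.L (-4.52, SE 0.70) and vegt.S (-4.17, SE 0.99) among those lower.

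Some target genes of Nodal signalling, among them both sox17b.1 copies and sox17a.L, rose in MO explants. In the fit with the replicate block 6 of 20 tested rows were higher and 2 lower, against 5.75% and 6.71% of all genes. The median log2 change of the 20 rows was 0.17, against 0.01 over all genes, and 0 were called without the block. sox17b.1.L, an endoderm factor, stood at 43.3, 27.2 and 38.3 CPM in MO libraries, against 19.1, 10.8 and 15.1 CPM in WT libraries. The groups did not overlap, and it rose by 1.28 (SE 0.09, edgeR adjusted p 3.04e-07). sox17b.1.S had 260, 191 and 305 counts in MO libraries, against 32, 23 and 78 in WT libraries, and rose by 2.47 (SE 0.19, edgeR adjusted p 8.45e-07). sox17a.L and tbxt.S rose by 0.98 (SE 0.16) and 1.67 (SE 0.29), while eomes.L, a T-box target, fell by 1.37 (SE 0.24), a call lost without the replicate 2 pair (edgeR adjusted p 0.0653). In the same fit 2 of 8 vegetal germ plasm rows were higher (plin2.L at 0.67 and ddx25.L at 0.52) and 0 lower, with a median of 0.39, and their part in the target values was not tested. Both sox17b.1 copies were higher in MO than in WT in all 3 pairs, while most nodal1, nodal2, nodal5 and nodal6 counts of the MO group came from replicate 3. The part of the nodal ligands in the target values was not tested.

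In NPB explants 9 of 18 target rows were lower and 1 higher, against 26.7% and 26.9% of all genes. The median log2 change of the 18 rows was -2.28, against -0.04 over all genes. mix1.L had 0, 2 and 4 counts in NPB libraries, against 66, 70 and 75 in WT libraries, and fell by 4.87 (SE 0.78, edgeR adjusted p 0.00121). It passed the filter through the WT libraries, where it is high, so this call is a description. sox17b.1.L had 7, 26 and 75 counts, against 493, 305 and 473, and fell by 3.46 (SE 0.63, edgeR adjusted p 0.00229). The row called higher, tbxt.S (3.97), was named after its values were seen, and without NPB replicate 3 its change was 0.49 (edgeR adjusted p 0.567). It also missed the threshold without WT replicate 1, 2 or 3.

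**Figure D5:**
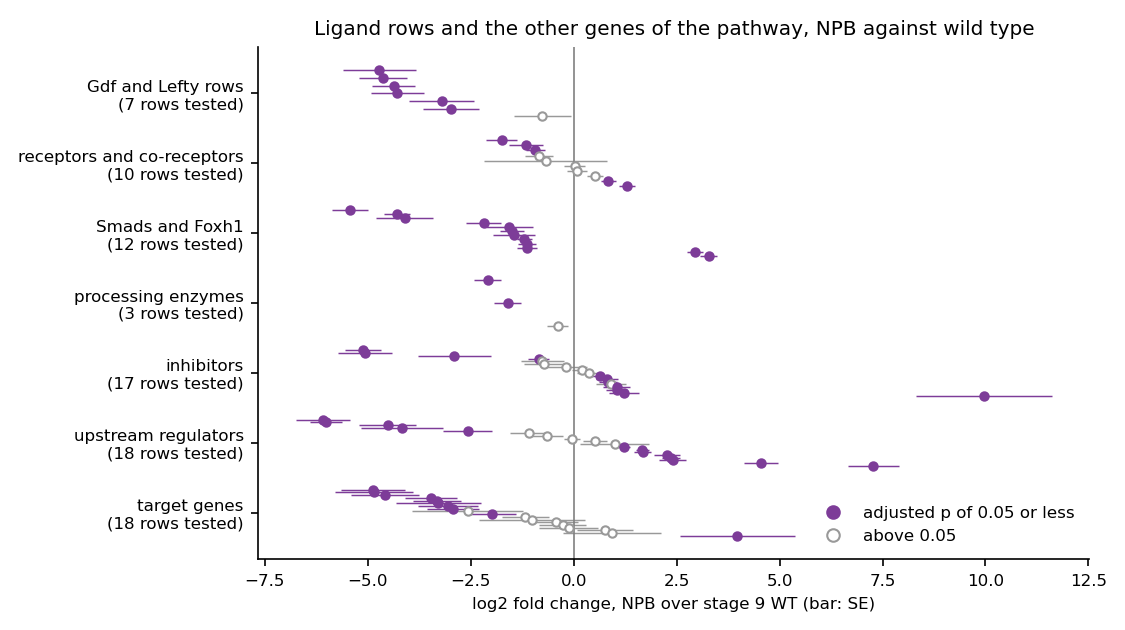
Log2 fold change, NPB over stage 9 WT, of the 7 tested Gdf and Lefty rows and of the tested rows of 6 lists by role, with bars for the SE, filled where the edgeR adjusted p was 0.05 or less. The ligand rows, Smads and Foxh1 and target genes lie mostly left of 0. Among the rows far to the right are cer1.S, both otx1 rows, tbxt.S and both smad4.1 rows.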

How the data were processed

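RNA was extracted by the authors from pooled animal pole explants and made into directional libraries, with 3 libraries in each of 3 groups. Per the labels and the study's methods, reads were trimmed with fastp, aligned with STAR to the Xenopus laevis genome 9.2 and counted per gene with HTSeq, which gave the deposited counts. Versions, strand setting and treatment of multi-mapped reads are not given in the sources used here, so that tandem copies and near-identical rows can share or lose reads. The authors' TPM values, from RSEM, were used for the NPB libraries. A deposited DESeq2 table of the authors' own comparison (fold changes and p-values) was not used.

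Counts were tested with edgeR 4.0.16 in R 4.3.3 (TMM, filterByExpr, robust quasi-likelihood F test) on the 2 groups compared. P-values were adjusted by Benjamini-Hochberg across all genes that passed the filter of a fit and called at 0.05 or less. The SE, which is approximate, is the absolute log2 change divided by the root of the F statistic. DESeq2 1.42.0 and limma-voom (limma 3.58.1), other scalings and filters, summed rows, left-out libraries and a replicate block were alternatives. Fits on simulated counts recovered known changes. Those counts had less spread than the fits without a block found here (common dispersion 0.147 for MO and 0.148 for NPB against WT). Rows of low counts were not among the changed ones. How well such changes are found in these data was thus not tested. Tables were handled with Python 3.11.15, pandas 2.3.3, numpy 2.4.6 and scipy 1.17.1. Poisson and binomial intervals of single-library values and ratios are exact, at 95%. Those of shares are Wilson intervals, also at 95%.

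Stage 9 libraries of MO and WT explants with the same replicate number deviated together from their group means (r = 0.868, 0.855 and 0.855, against -0.480 to -0.378 between numbers), so the pairing of these libraries comes from the data. No same-numbered libraries of NPB and WT explants did so. No library was a copy of another. What the 3 libraries of a group shared in embryos or clutches is not given in the sources used here, so p-values measure the spread between these samples.

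Every member was accounted for. From each pathway list, at most 6 genes with the lowest adjusted p were named, from the fit with the block where the other called none. Rows named outside that rule were chosen after their values were seen. The members and lists were chosen with earlier results of these data known. Gene order came from RefSeq v10.1, which held 15 of 20 member names. No sequence was used here.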

Additional observations from a re-analysis of the deposited data

How the results depend on the processing

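The 6 calls of members between NPB and WT explants held under each scaling, DESeq2, limma-voom, all 9 libraries in 1 fit and the replicate block, whose numbers do not pair these groups. Without single libraries the count ranged between 6 and 9, and between 8 and 10 with all genes of at least 1 count. That filter gave 10 with edgeR and 10 with DESeq2. Summing rows of one name gave 3 (also with the block) and summing L and S gave 2 (also with the block), because fewer features were tested. At 10 counts or more in every library no member was left. Over all genes, 11797 were called, and 7806 with L and S summed and the block. Of other pathway genes, 54 were called, 30 with L and S summed and 26 with the block added.

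Between MO and WT explants the replicate block decided the calls. Members called were 0 without it and 1 with it, also with all genes of at least 1 count, in DESeq2, with rows of one name summed or with L and S summed, and between 0 and 2 without single pairs. Over all genes the count was 0, 16 with all genes of at least 1 count (16 with names summed), 9 at 10 counts in every library, 437 and 427 in DESeq2 without and with that filter, 26 with all 9 libraries and 4 with L and S summed. With the replicate block it was 2699, 3517 with all genes of at least 1 count, 1987 in DESeq2, 2694 with names summed and 2006 with L and S summed. Without single libraries it ranged between 0 and 1, between 7 and 19 with all genes of at least 1 count, and between 1504 and 2611 with the block. Other pathway genes called were 0, 6 in DESeq2 (7 with all genes of at least 1 count), 27 with the block, 34 with that and all genes of at least 1 count, 23 in DESeq2 with the block, 26 with names summed, 14 with L and S summed, and between 19 and 22 without single pairs.

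The sign of uncalled members turned in 56 of 520 comparisons with an alternative, none of them called. For gdf1.L gene48962 the MO to WT log2 change of -0.03 became 0.0616 with limma-voom, 0.0106 with the block, 0.00297 with the block and all genes of at least 1 count, and 0.0245 in DESeq2 with the block. For gdf1.L gene50666, -0.01 became 0.00131 with upper-quartile scaling, 0.0744 with limma-voom, 0.0277 with the block, 0.0203 with the block and all genes of at least 1 count, and 0.0400 in DESeq2 with the block. Without single libraries or pairs the MO to WT log2 change lay between -0.18 and 0.37 for gdf1.L gene40286, -0.22 and 0.46 for gene47490, -0.33 and 0.20 for gene48962, and -0.32 and 0.21 for gene50666. It lay between -0.81 and 0.37 for lefty.L and between -0.98 and 0.41 for lefty.S. For rows near the floor it lay between -3.25 and 0.27 for gdf1.S, -0.44 and 0.35 for nodal.L, -0.70 and 0.70 for nodal.S, -1.94 and 4.08 for nodal1.L, -2.04 and 5.63 for nodal1.S, and -1.94 and 3.54 for nodal2.L. The NPB to WT change lay between -0.50 and 2.35 for gdf1.S and between -4.90 and 1.85 for nodal1.S. The causes were not tested. The nodal rows stood within a few counts of the floor in most libraries, so their values rest on few counts.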
